A study of Mus musculus with 12 samples.

Results

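Embryoid bodies of a Gcn5 null line and of a Gcn5 floxed line were compared at day 5 of differentiation, over every gene with a mean normalised read count of at least 10 in either genotype at that day. This rule took 16399 of the 18269 genes of the deposited table. Chromosome 11, on which the deleted gene Kat2a lies, held 1285 of them, and its genes are given apart from the 15114 on other chromosomes. By the labels, the null samples were 3 of line 4C2 (Gcn5-/-) and the floxed samples 3 of line 4_1 (Gcn5fx/fx), all embryoid body cells of the C57BL/6 strain. The floxed line carries Gcn5 flanked by recombination sites, and 3 samples of each line from day 3 entered the same fit. Each genotype was 1 line, so any difference may be one of line or of genotype, which cannot be told apart. The p-values measure only the spread between samples of those lines, which may be technical. The series' own text speaks of duplicates where the labels give 3 samples a group. At the threshold, 247 genes had a higher group mean between 10 and 11 and were kept, and 111 genes between 9 and 10 were not.

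Gcn5, the product of Kat2a, is the acetyltransferase of SAGA and ATAC, coactivator complexes that acetylate histones at active genes. Embryoid bodies are aggregates in which embryonic stem cells leave pluripotency and form precursors of the germ layers, a step at which FGF signals act through the kinase ERK. The series names FGF signalling and c-Myc, the transcription factor of growth genes, as its subjects. Values below are the authors' normalised read counts, read counts divided by 1 size factor per library. A log2 change is null over floxed on the log2(value + 1) scale, given ± SE from limma, and a gene was said to rise or fall in null samples at a Benjamini-Hochberg adjusted p under 0.05 in limma.

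Whole reads recovered from the values numbered 18865848 to 24416832 per null library and 26160220 to 29446068 per floxed library. Markers of the epiblast (Pou5f1, Sox2, Fgf5 and Otx2) summed to 3682 to 4779 in null samples and 6300 to 8912 in floxed samples, and those of neural ectoderm (Sox1, Pax6, Nes and Fabp7) to 5225 to 7088 in null and 7594 to 13411 in floxed samples. The 3 mesoderm markers in the table (T, Mixl1 and Tbx6) summed to 58.8 to 79.2 in null and 61.3 to 357 in floxed samples. The highest floxed sum rested on T in floxed replicate 2 (333, against 43.0 and 88.2 in floxed replicates 1 and 3). Mixl1 (log2 change 0.67) and Tbx6 (0.64) were higher in null samples without passing. Of these 11 genes Pou5f1, Sox2, Fgf5, Otx2, T and Fabp7 fell in null samples and none rose. The call of Otx2 was lost without floxed replicate 1 or null replicate 2, and that of Fabp7 without null replicate 1. T overlapped, with null replicate 2 (47.8) above floxed replicate 1 (43.0). Sox1, Pax6 and Nes did not pass. The highest neural sum was that of floxed replicate 3, where Nes (7142) and Fabp7 (2160) exceeded floxed replicates 1 and 2 (Nes 3917 and 4209, Fabp7 529 and 600). Markers of other cells overlapped between the genotypes: extraembryonic endoderm (Gata4, Gata6, Sox7 and Dab2) summed to 1117 to 1817 in null and 1057 to 3123 in floxed samples, and feeder fibroblasts (Col1a1, Col1a2, Thy1 and Postn) to 1116 to 2873 in null and 979 to 2711 in floxed samples. Sums of endothelium and blood were 163 to 351 in null and 186 to 464 in floxed samples, those of trophoblast (Gata3 and Plac1) 56.5 to 94.5 in null and 50.6 to 70.8 in floxed samples, and those of definitive endoderm (Foxa2 and Sox17) 209 to 275 in null and 260 to 518 in floxed samples. No marker named here was at 0 in any sample. In such bulk samples, fewer cells of a type and less RNA per cell cannot be told apart, and the part of cell makeup in the results was not tested.

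The deleted gene was lower in every null sample. Kat2a (ENSMUSG00000020918.14, chromosome 11, 100704746 to 100712465; mm10) had 739, 852 and 860.2 normalised reads in null samples, against 2161, 2391 and 2071 in floxed samples. The groups did not overlap, and the log2 change was -1.43 ± 0.11 (adjusted p = 1.6e-05). Since reads were summed over the whole gene, it is not known whether those remaining in null samples came from exons outside the deletion. PCAF, the acetyltransferase most like Gcn5, is encoded by Kat2b (ENSMUSG00000000708.14, chromosome 17, 53566861 to 53672720), which went the other way, with 1695, 1711 and 1856 in null and 995, 675 and 883 in floxed samples (1.06 ± 0.14, adjusted p = 0.000276). Myc (ENSMUSG00000022346.14, chromosome 15, 61985391 to 61990374) had 147, 120 and 68.6 in null samples, against 477, 389 and 261 in floxed samples, and every null value lay below every floxed value (-1.76 ± 0.30, adjusted p = 0.00140).

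Outside chromosome 11, 1658 members rose in null samples (11%) and 2250 fell (14.9%). The counts of gene lists given below stand beside these shares. List medians stand beside the median log2 change of -0.04 over all these members, of which 45.1% lay above 0. Both depend on the scaling: scaled on genes outside chromosome 11 alone, 1815 rose and 1931 fell. In the main fit the sizes differed, with a median log2 change of 0.75 for risers and -0.46 for fallers. Past 2-fold there were 558 risers and 382 fallers. Null and floxed samples did not overlap for 1615 of the risers and 2176 of the fallers. A call on these same samples makes that likely, and the share over all members is not given. These counts, and the lack of overlap of single genes below, therefore only describe the values. Without floxed replicate 3 the fallers numbered 1497. Among small noncoding genes, 0 of 103 snoRNAs rose and 22 fell, and among 319 processed pseudogenes, whose reads can be shared with their parent genes, 3 rose and 19 fell. Of 13019 protein-coding members 1565 rose and 2108 fell.

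On chromosome 11 the balance was turned, with 548 members higher in null samples (42.6%) and 35 lower (2.72%). The median log2 change of its 1285 members was 0.33 and 80.6% of them lay above 0, while medians of the other autosomes ran from -0.09 to 0.00 and between 8.19% and 13.7% of their members rose. In null samples the mean log2 value of chromosome 11 members exceeded that of other autosomes by 0.546, 0.616 and 0.636, and in floxed samples by 0.212, 0.242 and 0.206. The 3 null values lay above the 3 floxed values, by 0.379 on average (exact two-sided permutation test, p = 0.1, the smallest that 3 against 3 samples can give). A like shift ran along the whole chromosome: in bins of 20 Mb counted from the start of Kat2a, medians lay between 0.28 and 0.35. A change of a single chromosome 11 gene stands on this shift, which cannot be told apart from the line. With the median of the chromosome set to 0, an alternative added after the data were seen, 162 of its members were higher and 164 lower, and the genes named below for chromosome 11 kept their calls unless stated.

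**Figure D1:**
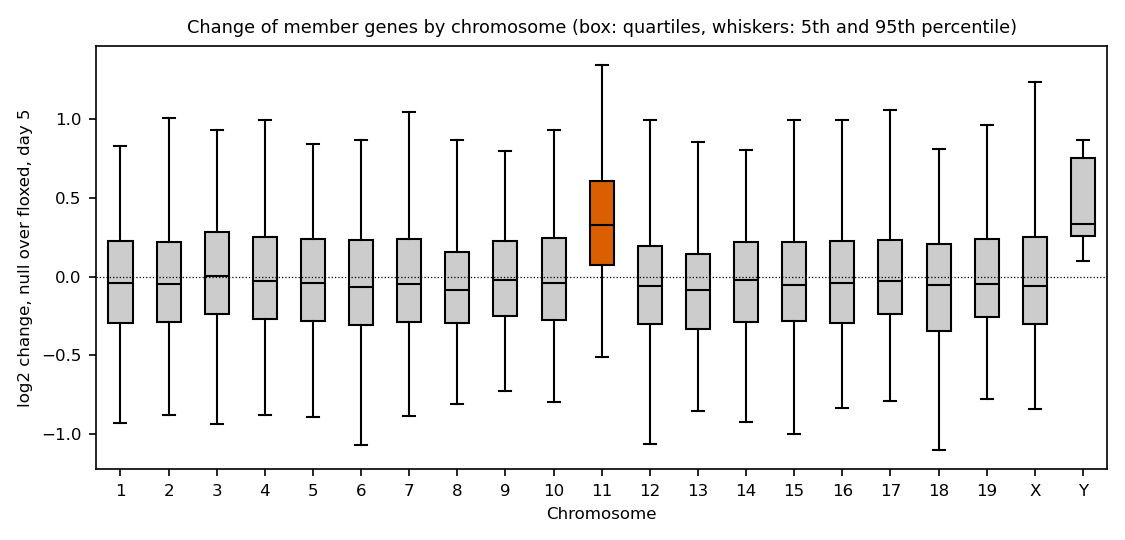
Log2 change (null over floxed, day 5) of all members by chromosome, with boxes at the quartiles, a line at the median and whiskers at the 5th and 95th percentile. Chromosome 11 (orange) has a median of 0.33, above the -0.09 to 0.00 of the other autosomes; the Y chromosome box rests on 9 genes.

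Rankings here and below cover only called genes without overlap of the groups and leave out clone-type symbols such as those ending in Rik. Within chromosome 11, the greatest fall of a ranked gene that averaged 100 reads or more in a group was that of Grb10, an imprinted gene for an adaptor that binds the insulin and IGF1 receptors. Grb10 (ENSMUSG00000020176.17, chromosome 11, 11930508 to 12038683) had 245, 209.7 and 193 normalised reads in null samples, against 17999.9, 25136 and 23248 in floxed samples. The means stood at 216 ± 26.5 in null and 22128 ± 3698 in floxed samples (SD, n = 3 each), a log2 change of -6.66 ± 0.17 (adjusted p = 1.51e-10). Other fallers of this chromosome were Etv4, an ETS factor induced by ERK (93.8, 34.95 and 72.2 in null and 236, 153 and 472 in floxed samples, -2.04 ± 0.37), and Wnt3a, a Wnt ligand of the primitive streak (112, 156 and 90.0 in null and 246, 428 and 424 in floxed samples, -1.60 ± 0.39). Efnb3, an ephrin ligand, fell by less, with 319.9, 428 and 481 in null and 667, 854 and 932 in floxed samples (-1.0 ± 0.22). Calcoco2, an autophagy receptor, was lower in null samples (-1.58 ± 0.42, adjusted p = 0.0158), a call lost without floxed replicate 1 (adjusted p = 0.0547) or null replicate 2 (0.0594).

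Among ranked genes of chromosome 11 that averaged 100 reads or more in a group, the greatest rises were those of Irgm2 and Igtp, immunity-related GTPases that interferon induces and that belong to a family of similar copies. Irgm2 (ENSMUSG00000069874.6, chromosome 11, 58199618 to 58222782) had 579.8, 807 and 652 in null samples, against 119, 152 and 88.2 in floxed samples (2.52 ± 0.30, adjusted p = 0.000174), and Igtp 614, 875 and 752 in null and 145, 164 and 112 in floxed samples (2.41 ± 0.28). Cavin1, a coat protein of caveolae and close to Kat2a on the chromosome, had 3289, 3784 and 3999 in null and 1049, 759 and 452 in floxed samples (2.37 ± 0.23). All null values of these genes stood above all floxed values, and the lowest null value was at least 3 times the highest floxed one. Cntd1 (2.23 ± 0.25), a gene of meiotic crossover that overlaps Coa3 and Becn1, Inca1 (2.16 ± 0.26), an inhibitor of a cyclin A1 kinase, and Fstl4 (2.13 ± 0.24) followed. Aldoc, an aldolase, rose by 2.0 ± 0.13 and Irf1, a transcription factor of the interferon response, by 1.31 ± 0.20. With the chromosome's median set to 0, the 6 rises from Irgm2 to Fstl4 measured between 1.8 (Fstl4) and 2.19 (Irgm2).

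**Figure D2:**
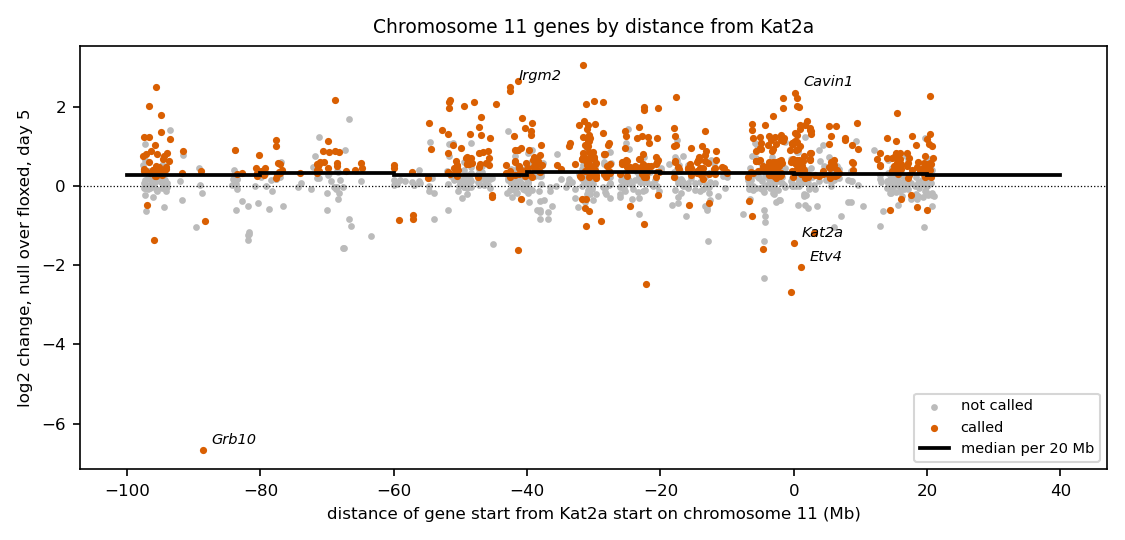
Log2 change (null over floxed, day 5) of the chromosome 11 members by distance of the gene start from that of Kat2a in Mb; orange points passed the test and black lines are medians per 20 Mb. The medians stay between 0.28 and 0.35 along the chromosome, and Grb10 lies far below all others at -6.66.

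Outside chromosome 11, the greatest rise among ranked genes that averaged 100 reads or more in a group was that of Adm, the vasodilator peptide adrenomedullin. Adm (ENSMUSG00000030790.14, chromosome 7, 110627661 to 110629820) had 341, 396 and 385 normalised reads in null samples, against 30.2, 41.9 and 29.7 in floxed samples (3.44 ± 0.27, adjusted p = 1.59e-05). Hsd11b1, which activates glucocorticoids, had 332, 418 and 306 in null and 41.4, 57.8 and 26.2 in floxed samples (3.10 ± 0.49). Both genes were several-fold higher in each null sample than in any floxed sample. Of the next rises, Erg, an ETS factor of endothelium, had 78.0, 135 and 239 in null and 10.3, 18.4 and 23.6 in floxed samples (2.97 ± 0.63), although 0 of the 13 endothelium and blood genes outside chromosome 11 passed the test in either direction (median 0.32). Mat1a, a methionine adenosyltransferase best known from liver, had 88.2, 115 and 101 in null and 16.7, 36.0 and 3.49 in floxed samples (2.83 ± 0.74). On the X chromosome, Usp26, a deubiquitinase of the testis, had 1172, 1075 and 1802 in null and 268, 153 and 332 in floxed samples (2.45 ± 0.28), and Asb9, a ubiquitin ligase adaptor, 232, 266 and 494 in null and 43.8, 62.0 and 59.4 in floxed samples (2.50 ± 0.33). Cyp4v3, a fatty acid hydroxylase, rose by 2.41 ± 0.36. The 12 greatest rises also held Syndig1l (2.40) and, inducible by interferon, Gbp11 (3.09), Gbp7 (2.48), Ddx60 (2.90) and Rsad2 (2.70).

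Genes of the interferon response, by which cells answer virus and foreign nucleic acid, were mostly higher in null samples. Of 27 outside chromosome 11, 21 rose and 0 fell, with a median log2 change of 1.76. All 5 on chromosome 11 rose, where 42.6% of all members did. Rsad2 (ENSMUSG00000020641.15, chromosome 12, 26442746 to 26456452), the antiviral enzyme viperin, had 723, 733 and 1019 in null samples, against 156, 153 and 81.2 in floxed samples (2.70 ± 0.46, adjusted p = 0.00140). Ddx60 (ENSMUSG00000037921.14, chromosome 8, 61928087 to 62038244), a helicase that aids RNA sensing, had 606, 718 and 844 in null and 76.4, 99.7 and 112 in floxed samples (2.90 ± 0.35, adjusted p = 0.000193). In both, the lowest null sample was well above the highest floxed one. Gbp7 (ENSMUSG00000040253.15, chromosome 3, 142530342 to 142550149), a guanylate binding protein with close copies on chromosome 3, had 1778, 2069 and 1961 in null and 457, 367 and 248 in floxed samples (2.48 ± 0.28). Parp14 (977, 1045 and 1162 in null and 266, 272 and 202 in floxed samples, 2.11 ± 0.22) and Oasl2 (723, 1063 and 1039 in null and 216, 219.5 and 234 in floxed samples, 2.05 ± 0.22) also rose. Ifit1, Ifit3 and Irf7, singled out after their values were seen, were low in level, and Ifit genes have close copies: Ifit1 had 91.6, 83.9 and 74.9 in null and 11.9, 5.03 and 6.11 in floxed samples (3.36 ± 0.41), and Ifit3 30.5, 24.5 and 39.2 in null and 4.77, 0.838 and 0 in floxed samples, a low-count gene whose log2 change of 3.86 became 2.45 on the log2(value + 5) scale. Irf7, the factor that amplifies the response, had 21.5, 22.1 and 35.7 in null and 3.98, 4.19 and 4.36 in floxed samples (2.37 ± 0.37), though it overlaps the far more abundant Phrf1 on the other strand. Several genes of the response did not pass: Irf9 (0.26, adjusted p = 0.270) and Ddx58 (0.57, adjusted p = 0.0897) were among the 6 that did not, and with the replicate number as a block Ddx58 did (adjusted p = 0.0164).

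Interferon is known to induce its targets through a type of promoter sequence, the interferon-stimulated response element. Promoters of 3 such genes are shown, taken in order of p among risers whose promoter held a match to the letters below. The 250 bases before the start of Gbp7 (chr3:142530086-142530335, plus strand), Ddx60 (chr8:61927837-61928086, plus strand) and Ifit1 (chr19:34640639-34640888, plus strand) are given from RefSeq (GRCm38.p6), 5′ to 3′ and in lower case, with each match to GAAANNGAAA on either strand in capitals.
Gbp7: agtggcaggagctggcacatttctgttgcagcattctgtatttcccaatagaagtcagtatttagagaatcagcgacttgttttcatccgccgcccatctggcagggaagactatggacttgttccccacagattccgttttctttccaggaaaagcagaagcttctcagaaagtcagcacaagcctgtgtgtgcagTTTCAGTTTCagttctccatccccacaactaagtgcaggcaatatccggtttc
Ddx60: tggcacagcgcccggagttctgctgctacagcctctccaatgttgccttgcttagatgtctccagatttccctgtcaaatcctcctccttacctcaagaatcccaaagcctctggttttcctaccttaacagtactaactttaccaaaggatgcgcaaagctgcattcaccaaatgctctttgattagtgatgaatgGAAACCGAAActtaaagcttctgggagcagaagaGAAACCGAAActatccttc
Ifit1: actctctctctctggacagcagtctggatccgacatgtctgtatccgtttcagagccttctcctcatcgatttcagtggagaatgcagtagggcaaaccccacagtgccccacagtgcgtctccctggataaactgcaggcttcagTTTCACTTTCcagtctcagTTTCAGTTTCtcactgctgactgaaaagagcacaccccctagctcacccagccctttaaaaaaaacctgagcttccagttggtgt
Gbp7 held 1 match, and Ddx60 and Ifit1 held 2 each. As these 3 genes were picked for holding a match, that each has one is no result. Oasl2, which also rose, held 0. A gene was counted where any of its promoters held a match. Of the 21 interferon response genes outside chromosome 11 with a RefSeq promoter, 12 held a match (57.1%), against 936 of all 27025 genes with one (3.46%). Among members outside chromosome 11, the share was 4.78% for risers, 2.49% for fallers and 2.98% for all. A match describes the letters only and is no sign that a factor bound there.

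Genes of antigen presentation by MHC class I were mostly higher too. Outside chromosome 11, 11 of 16 rose and 1 fell (median 0.86), the faller being Calr, a chaperone of the endoplasmic reticulum, whose call held only without floxed replicate 2 when single libraries were left out. H2-K1 (ENSMUSG00000061232.15, chromosome 17, 33996017 to 34000347), a class I heavy chain, had 1675, 1779 and 2034 in null samples, against 659.6, 716 and 554 in floxed samples (1.51 ± 0.11, adjusted p = 1.42e-05). Tapbp, which loads peptides, had 3115, 2942 and 3301 in null and 1474, 1243 and 889 in floxed samples (1.40 ± 0.22), and Psmb9, an immunoproteasome subunit that overlaps Tap1, 81.4, 111 and 127 in null and 37.4, 40.2 and 37.5 in floxed samples (1.42 ± 0.23). H2-T23 rose as well (1.35 ± 0.23); reads of class I genes can be split among near-identical copies, so single values are uncertain. B2m, the light chain shared by class I molecules, did not pass (1237, 1235 and 1214 in null and 1337, 1284 and 806 in floxed samples, 0.14 ± 0.18, adjusted p = 0.618).

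**Figure D3:**
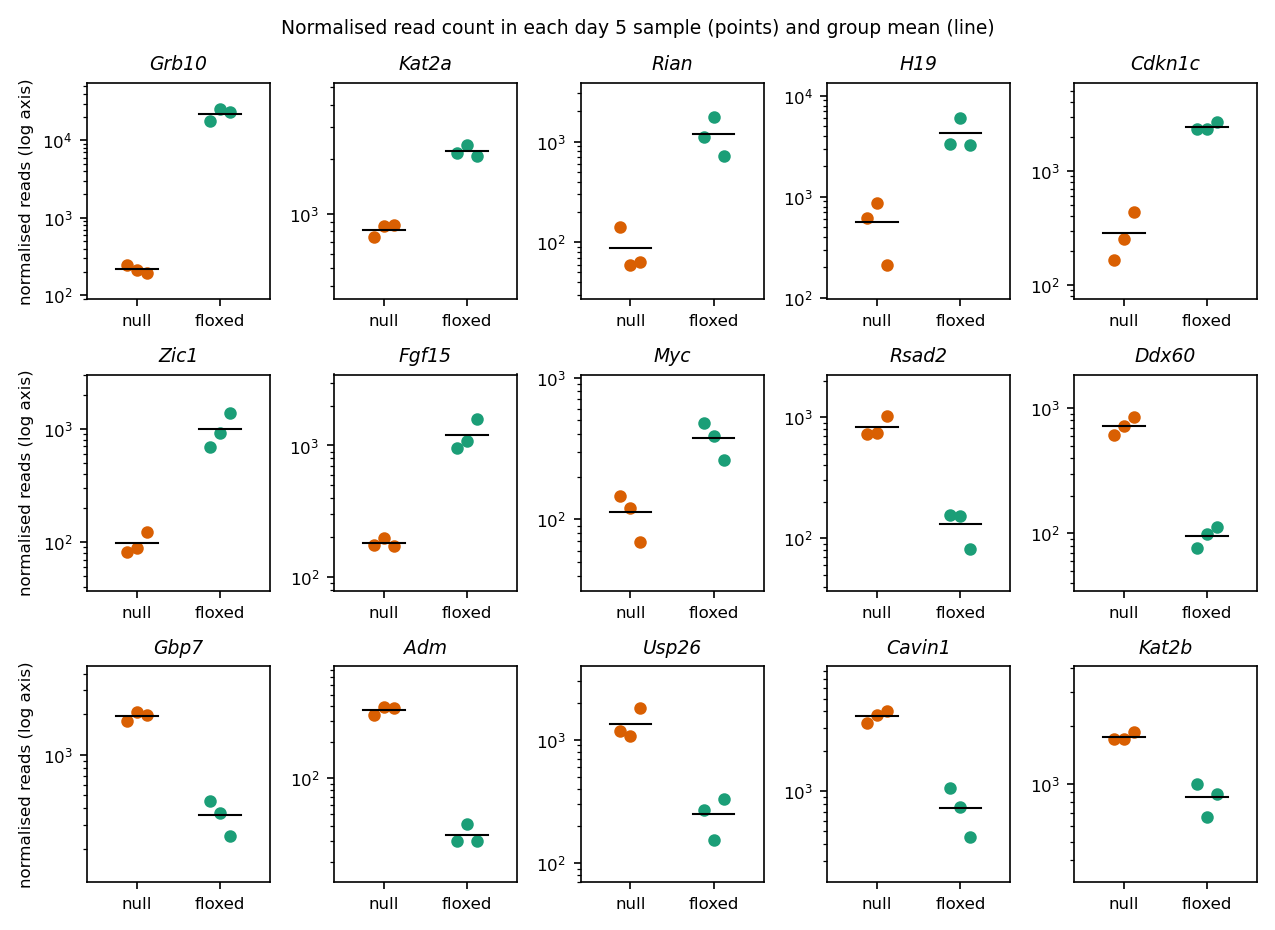
Normalised read counts (log axis) of 15 named genes in the 3 null (orange, left) and 3 floxed (green, right) samples of day 5, with a line at each group mean. In every panel the genotypes do not overlap, with Grb10 furthest apart at means of 216 in null and 22128 in floxed samples.

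Genes of glycolysis and the hypoxia response were also mostly higher in null samples. Outside chromosome 11, 18 of 30 rose and 0 fell (median 0.51). Both members on chromosome 11, Aldoc and P4ha2, rose, where 42.6% of all members did. Beside Adm, Pdk1, a kinase that shuts pyruvate dehydrogenase, had 5369, 5881 and 6149.6 in null samples, against 3085, 3065 and 3317 in floxed samples (0.88 ± 0.11, adjusted p = 0.000211). The aldolase gene Aldoa had 38906, 39473 and 44312 in null and 20365, 26506 and 22737 in floxed samples (0.82 ± 0.10), and the isomerase gene Gpi1 17109, 15837 and 17434 in null and 10269, 11512 and 9858 in floxed samples (0.67 ± 0.10). The null samples were higher in each case, without overlap. Aldoc had 858, 796 and 949 in null and 204, 232 and 211 in floxed samples (2.0 ± 0.13), and P4ha2, a collagen prolyl hydroxylase, 675, 594 and 664 in null and 331, 379 and 343 in floxed samples (0.87 ± 0.12, or 0.55 with the chromosome's median set to 0). Several abundant enzymes of the same pathway did not pass, among them Gapdh (-0.02), Eno1 (0.05), Pgam1 (0.01) and Pkm (0.12).

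Of 15 genes of primordial germ cells and the germline, 6 rose and 0 fell (median 0.56), and without floxed replicate 2 the count was 4. Ddx4, the helicase Vasa, had 444, 433 and 565 in null samples, against 219, 195 and 173 in floxed samples (1.29 ± 0.14, adjusted p = 0.000131). Stk31, a kinase of germ cells, had 52.0, 45.4 and 57.0 in null and 12.7, 15.9 and 6.11 in floxed samples (2.14 ± 0.35), and Tdrd1, which acts in piRNA defence against transposons, 93.8, 115 and 119 in null and 75.6, 71.2 and 62.0 in floxed samples (0.64 ± 0.15). Dnd1, which overlaps Wdr55, rose as well (0.83 ± 0.19). Stra8, the meiotic gatekeeper that retinoic acid induces, belonged to another list and had 373, 354 and 405 in null and 96.3, 112 and 54.1 in floxed samples (2.16 ± 0.32). In these genes too every null sample exceeded every floxed sample. The germ cell specifiers Prdm1 (0.06), Dppa3 (-0.85) and Nanos3 (-0.54) did not pass.

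Among epithelial junction genes outside chromosome 11, 5 of 21 rose and 0 fell (median 0.19), a count of 3 without floxed replicate 3, null replicate 1 or null replicate 2 and of 8 with the replicate number as a block. Ocln, the tight junction protein occludin, had 1125, 1412 and 1231 in null and 371, 494 and 351 in floxed samples (1.64 ± 0.14, adjusted p = 3.26e-05), and Epcam, an epithelial adhesion molecule, 4039.6, 4259 and 4176 in null and 2376, 2377 and 2182 in floxed samples (0.85 ± 0.08). Of 20 basement membrane genes 5 rose and 0 fell (median 0.26), including the nidogen Nid2 (0.58 ± 0.10) and the integrin Itgb1 (0.35 ± 0.08), and the count was 2 without floxed replicate 1 or null replicate 3. Snai2, a repressor of epithelial genes, also rose, with 74.6, 83.9 and 62.4 in null and 14.3, 22.6 and 13.1 in floxed samples (2.11 ± 0.30). Of the mesenchymal genes Cdh11, a cadherin, fell (260, 303 and 241 in null and 951, 545 and 1033 in floxed samples, -1.60 ± 0.28). On that list of 25, 3 rose and 4 fell (median -0.17), near the shares of 11% and 14.9% over all members outside chromosome 11.

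Imprinted genes, of which 1 parental copy is silent, held 4 of the 12 greatest falls outside chromosome 11 among ranked genes that averaged 100 reads or more in a group: Meg3, Rian, Cdkn1c and H19. Rian (ENSMUSG00000097451.9, chromosome 12, 109603940 to 109661716), a noncoding RNA of the Dlk1-Meg3 domain, had 141, 59.4 and 63.3 in null samples, against 1116, 1733 and 724 in floxed samples (-3.77 ± 0.49, adjusted p = 0.000295). Its neighbours Meg3 (23.7, 1.17 and 15.2 in null and 113, 247 and 107 in floxed samples, -3.93 ± 0.71) and Mirg (7.91, 2.33 and 8.02 in null and 93.9, 116 and 81.2 in floxed samples, -3.91 ± 0.43) fell as well. All null values of these RNAs lay below all floxed values, and those of null replicate 2 were the lowest of each. Dlk1, the protein-coding gene of the same domain, did not pass (233, 249 and 295 in null and 407, 321 and 366 in floxed samples, -0.49 ± 0.25, adjusted p = 0.169). On chromosome 7, H19 (ENSMUSG00000000031.15, chromosome 7, 142575529 to 142578143) had 623, 870.3 and 212 in null and 3336, 6081 and 3284 in floxed samples (-3.06 ± 0.47), and Cdkn1c (ENSMUSG00000037664.12, chromosome 7, 143458339 to 143461050), an inhibitor of cyclin-dependent kinases, 165, 253 and 434 in null and 2357, 2324 and 2690.5 in floxed samples (-3.22 ± 0.26, adjusted p = 1.97e-05). Igf2, beside H19, did not pass (0.57, adjusted p = 0.161). Igf2r on chromosome 17, the receptor that clears IGF2, had 4350.4, 4137 and 4295 in null and 9326, 10084 and 8469 in floxed samples (-1.12 ± 0.09).

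Over the whole list, 6 of the 37 imprinted genes outside chromosome 11 rose and 9 fell (median -0.24), beside 11% and 14.9% over all members there. On chromosome 11 Zrsr1 rose and Grb10 fell. The following genes were singled out after their values were seen, and list members that did not pass were not sorted by parental copy. The fallers Meg3, Rian, Mirg, H19, Cdkn1c, Phlda2 (-1.56 ± 0.23), Igf2r and Grb10 are known to be expressed mainly from the maternal copy, and Mest (-1.18 ± 0.23) from the paternal copy; Gnas (-0.44 ± 0.08) has transcripts of either, and overlaps Nespas as Mest overlaps Copg2. The risers are known for paternal expression: Sgce (1018, 1242 and 1256 in null and 521, 572 and 657 in floxed samples, 1.0 ± 0.15), Snrpn (1637, 1312 and 1253 in null and 843, 708 and 876 in floxed samples, 0.79 ± 0.14), Airn (1.59 ± 0.45), the antisense RNA of Igf2r, Kcnq1ot1 (0.85 ± 0.26), the antisense RNA of Kcnq1, Peg10 (0.90 ± 0.27), Slc38a4 (0.32 ± 0.11) and Zrsr1 (465, 546 and 586 in null and 278, 207 and 221 in floxed samples, 1.18 ± 0.13), which overlaps Commd1. Those of Sgce, Snrpn and Zrsr1 held without each library in turn. The others were lost without some library: Airn without floxed replicate 1 (adjusted p = 0.0597), floxed replicate 3 (0.0808) or null replicate 2 (0.0640), Kcnq1ot1 without floxed replicates 1 (0.0699) or 3 (0.0814) or null replicate 1 (0.112, log2 change 0.56), Peg10 without floxed replicates 1 (0.0743) or 3 (0.0930) or null replicates 1 (0.104) or 2 (0.0632), and Slc38a4 without floxed replicates 1 (0.126) or 3 (0.0959) or null replicates 2 (0.0752) or 3 (0.127). The count of risers was 2 without floxed replicate 1 or 3 and 3 without null replicate 2. Of 18 genes of DNA methylation and imprint maintenance 0 rose and 4 fell (median -0.22; 8 fell with the replicate block), Trim28, a corepressor that guards imprints, among them (18803, 19324 and 20335 in null and 29518, 24789 and 29299 in floxed samples, -0.51 ± 0.09).

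**Figure D4:**
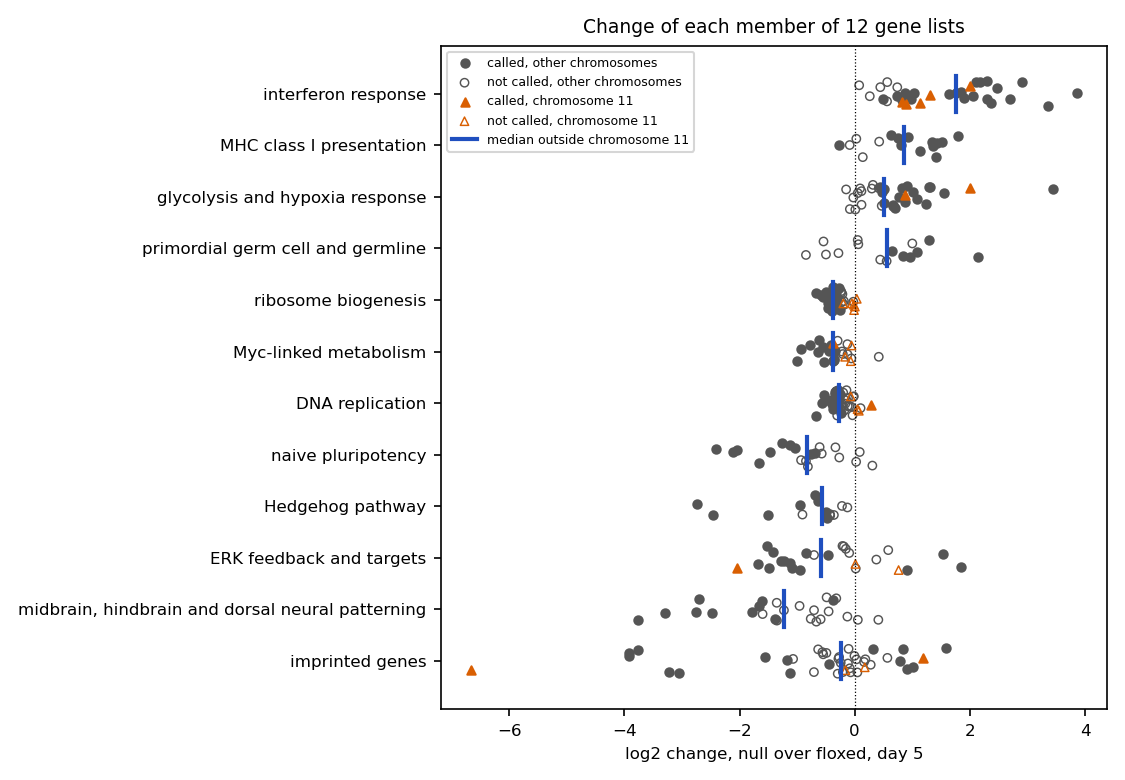
Log2 change (null over floxed, day 5) of each member of 12 gene lists, with filled points for genes that passed the test, triangles for chromosome 11 and a blue line at the median outside it. Interferon response genes centre on 1.76 and midbrain, hindbrain and dorsal neural patterning genes on -1.23, while imprinted genes spread to both sides.

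Of 25 genes that pattern the midbrain, hindbrain and dorsal neural tube 0 rose and 10 fell in null samples (median -1.23). Zic1 (ENSMUSG00000032368.14, chromosome 9, 91358058 to 91365810), a zinc finger factor of the dorsal neural tube, had 81.4, 88.5 and 122 in null samples, against 689.8, 918 and 1365 in floxed samples (-3.30 ± 0.50, adjusted p = 0.000756). Its divergent neighbour Zic4, which overlaps it on the other strand, had 0, 2.33 and 4.46 in null and 23.9, 30.2 and 57.6 in floxed samples (-3.76 ± 0.65). Floxed replicate 3 had the highest values of both genes, and no null sample reached a floxed one. The sources do not state whether reads were counted by strand, so reads of genes that overlap on opposite strands cannot be told apart; of the genes with values here this holds also for Pax5, Six6, Six3os1, Fgf15, Gli1, Rarb, Sox8, Neurog3, Crb2, Ccnd1, Cdk4, Ppat, Dkc1, Rrp9, Aldoa, Gpi1, Tapbp, Nid2, Tada1 and Tada2b. Pax5, a factor of the midbrain-hindbrain boundary, had 46.3, 26.8 and 20.5 in null and 218, 200.3 and 176 in floxed samples (-2.70 ± 0.49), and En2, its target there, 14.7, 15.1 and 15.2 in null and 72.4, 49.4 and 339.6 in floxed samples (-2.76 ± 0.55). Msx2, a homeobox gene induced by BMP, had 49.7, 46.6 and 41.9 in null and 128, 175 and 185 in floxed samples (-1.78 ± 0.35). The 3 null values of En2 were nearly equal, while floxed replicate 3 stood far above the other floxed samples. In the forebrain and eye field list 0 of 17 rose and 4 fell (median -0.71); the count was 2 without floxed replicate 1 and 7 with the replicate block. Six6, an eye field factor, had 10.2, 9.32 and 4.46 in null and 136, 27.7 and 147 in floxed samples (-3.28 ± 0.81), and the noncoding RNAs Six3os1 (-2.64 ± 0.58) and Pantr1 (-3.48 ± 0.80) fell too. Tril, a Toll-like receptor partner found in brain, had 49.7, 60.6 and 54.4 in null and 345, 235 and 618 in floxed samples (-2.73 ± 0.37). The sum of the neural ectoderm markers given above was lower in null samples as well, and its part in these falls was not tested.

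Neural progenitor genes had 0 of 23 higher and 7 lower (median -0.82), a count that dropped to 2 without floxed replicate 3, null replicate 1 or null replicate 2 and reached 13 with the replicate block. Crb2, a polarity protein of neuroepithelium, had 531, 610.5 and 479 in null and 1225, 1280.4 and 1148 in floxed samples (-1.18 ± 0.20). Of 22 genes of later neurogenesis 3 rose and 1 fell (median -0.14). Neurog3, a proneural factor known from pancreas and hypothalamus, had 276, 431 and 318 in null and 39.8, 126 and 83.8 in floxed samples (2.15 ± 0.44), and Neurod1, its target, 358, 532 and 295 in null and 156, 164 and 128 in floxed samples (1.36 ± 0.29). Stmn2, a microtubule regulator of neurons, fell (435, 559 and 448 in null and 1321, 1031 and 1274 in floxed samples, -1.33 ± 0.18). In neural crest genes 2 of 15 rose and 4 fell (median -0.18), beside 11% and 14.9% over all members outside chromosome 11. Ets1 (1.08 ± 0.18) rose, and Sox8 (-2.40 ± 0.41) and Twist1 (-1.13 ± 0.24) fell. Of 9 Hox genes outside chromosome 11, 0 passed in either direction (median -1.56, 0 of 6 on chromosome 11), while the replicate block called 6 of the 9 lower and 1 higher.

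Of 21 FGF ligands and receptors outside chromosome 11, 0 rose and 7 fell (median -0.54), or 4 without floxed replicate 1, floxed replicate 3 or null replicate 2. Fgf15 (ENSMUSG00000031073.5, chromosome 7, 144896531 to 144900953), a ligand of the neural tube, had 174, 197 and 172 in null samples, against 963, 1077 and 1577 in floxed samples (-2.70 ± 0.38, adjusted p = 0.000461). Fgf8, a ligand of the streak and the midbrain-hindbrain boundary, had 88.2, 119 and 109.6 in null and 389, 249 and 348 in floxed samples (-1.62 ± 0.38). Fgf3 (-1.50 ± 0.31) and Fgf17 (-1.38 ± 0.29) fell, and Fgf11 on chromosome 11, an intracellular member of the family, rose (84.8, 117 and 111 in null and 32.6, 48.6 and 26.2 in floxed samples, 1.54 ± 0.22, or 1.22 with the chromosome's median set to 0). Of 22 ERK feedback genes and targets, 3 rose and 11 fell (median -0.59), a count of fallers that stayed at 11 without each library. Spry2, an inhibitor of receptor tyrosine kinases, had 1197, 1051 and 1022 in null and 2801, 2303 and 2903 in floxed samples (-1.29 ± 0.13, adjusted p = 7.63e-05), and Spry1 422, 349.5 and 481 in null and 964, 752 and 947 in floxed samples (-1.09 ± 0.13). The immediate early gene Egr1 went the other way, with 348, 354 and 258 in null and 106, 137 and 87.3 in floxed samples (1.54 ± 0.24). Ccnd1, cyclin D1, had 2630.1, 2923 and 2802 in null and 5022, 4692 and 6491 in floxed samples (-0.94 ± 0.13).

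In the Hedgehog pathway 0 of 14 rose and 8 fell (median -0.57), with counts of 3, 4 and 3 without floxed replicate 2, null replicate 2 and null replicate 3. Gli1, a transcriptional effector and target of the pathway, had 28.3, 16.3 and 27.6 in null samples, against 86.7, 171 and 162 in floxed samples (-2.47 ± 0.31, adjusted p = 0.000271). The ligand gene Shh was near the lower limit, at 4.52, 2.33 and 0.891 in null and 18.3, 54.5 and 8.73 in floxed samples (-2.74 ± 0.66). Of 19 Wnt ligands and targets outside chromosome 11 0 rose and 7 fell (median -0.67), and of the 7 on it 2 rose and 2 fell. Sfrp2, a secreted modulator of Wnt, had 1665, 1582 and 2209.7 in null and 6021, 4918 and 9047 in floxed samples (-1.84 ± 0.20), Lgr5, a receptor for R-spondins, 22.6, 17.5 and 18.7 in null and 82.7, 66.2 and 53.3 in floxed samples (-1.72 ± 0.30), and Rspo3, such a ligand, 14.7, 12.8 and 8.91 in null and 57.3, 57.0 and 88.2 in floxed samples (-2.38 ± 0.44). In the retinoic acid pathway 1 of 17 rose, Stra8, and 5 fell (median -0.34). Cyp26b1, which degrades retinoic acid, had 340.2, 332 and 401 in null and 829, 1321 and 1502 in floxed samples (-1.72 ± 0.30), and the receptor gene Rarb 47.5, 43.1 and 69.5 in null and 135, 106 and 162 in floxed samples (-1.32 ± 0.30). In the Notch pathway 3 of 18 rose and 3 fell (median -0.16), beside 11% and 14.9% over all members outside chromosome 11. Without 1 library it had 1 to 4 risers and 1 to 3 fallers, and with the replicate block 5 of each. Of its ligands Jag2 rose (1.0 ± 0.14) and Jag1 fell (-0.82 ± 0.20). In Nodal and BMP signalling 2 of 21 rose and 3 fell (median -0.36), near the same shares. The fallers numbered 1 without floxed replicate 1 or 3 and 6 without floxed replicate 2 or with the replicate block.

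Most genes of ribosome biogenesis and Myc-linked metabolism fell, by small amounts. Of 34 ribosome biogenesis genes outside chromosome 11, 0 rose and 26 fell (median -0.37), while of the 6 on chromosome 11 none passed in either direction (median -0.01). Dkc1, the pseudouridine synthase dyskerin, had 3009.9, 2980.2 and 3098 in null samples, against 4666, 4126 and 4093 in floxed samples (-0.50 ± 0.07, adjusted p = 0.000290), and Fbl, the methyltransferase fibrillarin, 2310.3, 2299.8 and 2344 in null and 3284, 3218 and 3011 in floxed samples (-0.45 ± 0.06). Rrp9 (-0.58 ± 0.08) and Nolc1 (-0.56 ± 0.07), both of small nucleolar particles, fell likewise. The list of Myc-linked metabolism held mostly genes of polyamine, nucleotide and one-carbon metabolism, beside others such as Cdk4, Ldha, Prmt5, Slc3a2 and Tfrc. Of its 20 genes outside chromosome 11, 0 rose and 13 fell (median -0.37). Odc1, ornithine decarboxylase, had 12701, 12006 and 11564 in null and 21922, 19738 and 20747 in floxed samples (-0.78 ± 0.07, adjusted p = 6.3e-05), Srm, spermidine synthase, 1330.3, 1160.4 and 1298 in null and 2585, 2163 and 2537 in floxed samples (-0.94 ± 0.10), and Ppat, the entry enzyme of purine synthesis, 2515, 2413 and 2294 in null and 4048, 3508 and 3709 in floxed samples (-0.64 ± 0.08). Cdk4, the kinase partner of D cyclins, had 9804, 11592 and 9702 in null and 15899, 15277 and 16238 in floxed samples (-0.61 ± 0.08). For each of these genes the 3 null values lay below the 3 floxed values. In the Myc network 3 of 10 genes outside chromosome 11 fell (median -0.13) and 1 rose, which did not pass without floxed replicate 1. Max, the partner of Myc, fell (806, 786 and 733 in null and 993, 951 and 952 in floxed samples, -0.32 ± 0.08).

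Myc and Max are known to bind the E-box CACGTG, and the promoter of Cdk4, chosen after its matches were counted, is shown as an example from the metabolism list (RefSeq, GRCm38.p6, chr10:127063285-127063534, plus strand, 250 bases before the start, 5′ to 3′, CACGTG in capitals; it reads the same on both strands).
Cdk4: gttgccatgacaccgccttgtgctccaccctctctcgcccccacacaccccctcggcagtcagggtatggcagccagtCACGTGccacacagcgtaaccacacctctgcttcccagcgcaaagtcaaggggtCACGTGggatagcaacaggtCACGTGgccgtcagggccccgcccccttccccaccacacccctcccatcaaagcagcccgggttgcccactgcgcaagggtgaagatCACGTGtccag
This window held 4 matches. Of 18 Myc-linked metabolism genes outside chromosome 11 with a RefSeq promoter, 6 held at least 1 match (33.3%), against 1854 of all 27025 genes with one (6.86%). In the ribosome biogenesis list 2 of 30 did (6.67%). Among members outside chromosome 11 the share was 11.4% for fallers, 8.36% for risers and 9.56% for all. These are counts of letters and say nothing of binding.

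**Figure D5:**
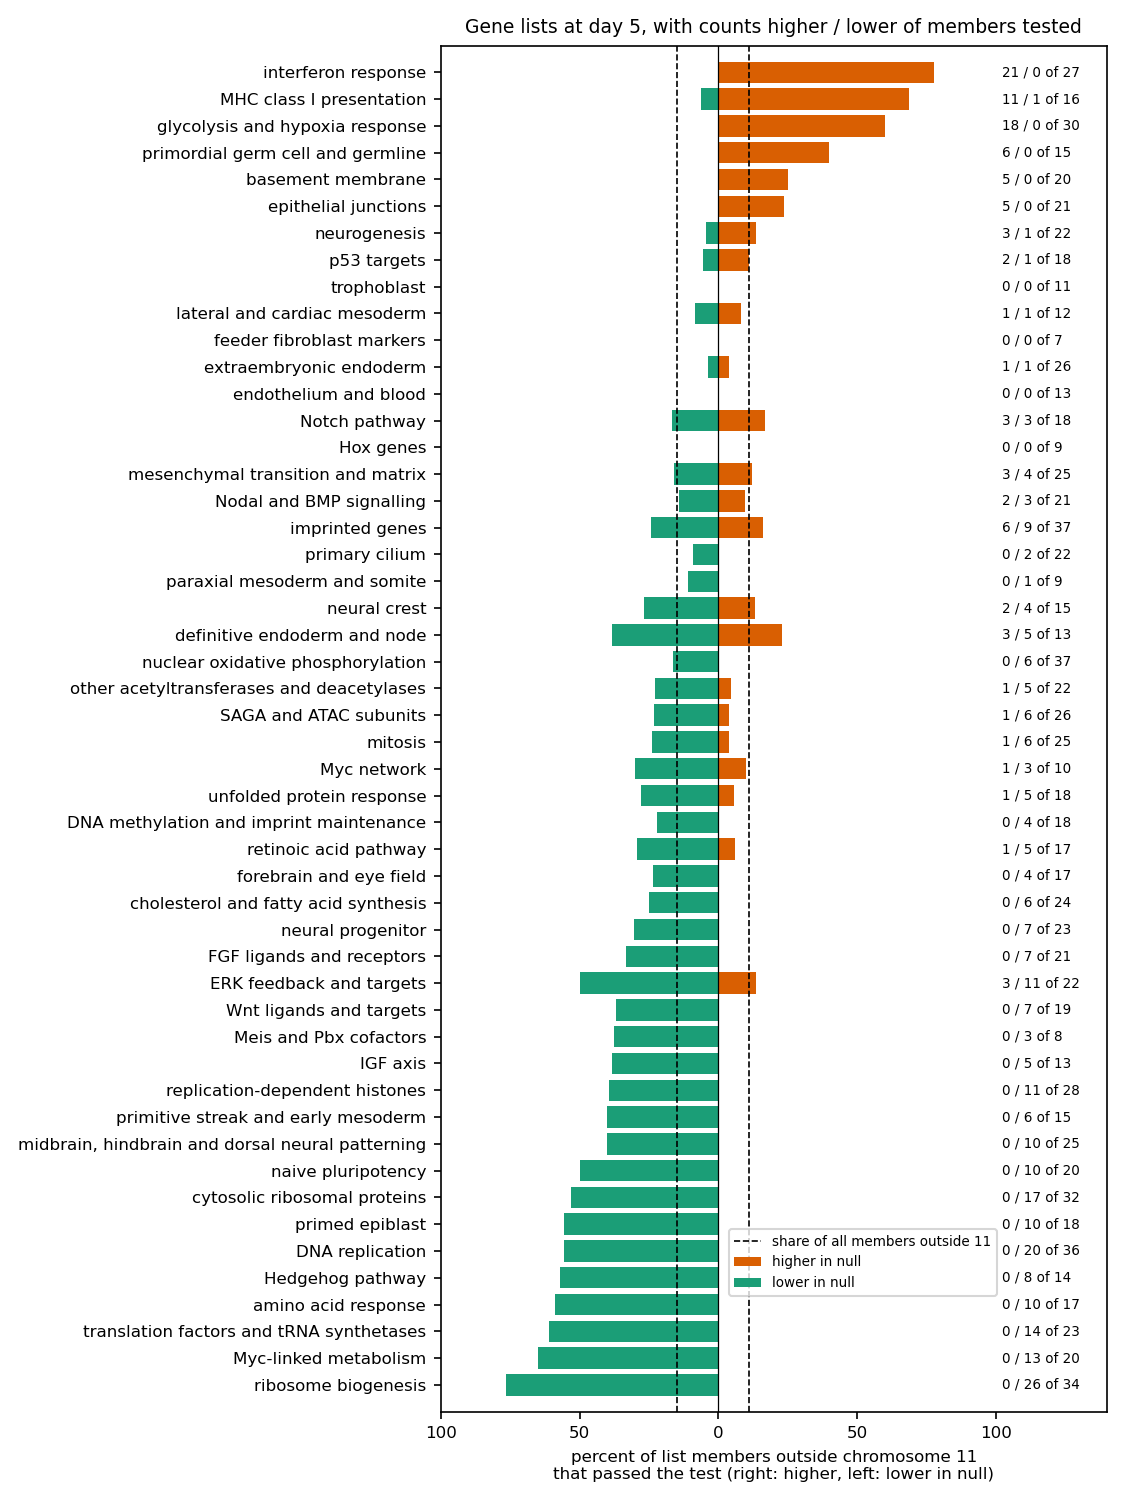
Percent of the members of each gene list outside chromosome 11 that rose (orange, right) or fell (green, left) in null samples at day 5, with the counts higher / lower of members at the right edge and dashed lines at the shares over all such members, 11% and 14.9%. Interferon response (21 of 27 higher) stands at the top and ribosome biogenesis (26 of 34 lower) at the bottom.

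Genes of DNA replication had 0 of 36 higher and 20 lower outside chromosome 11 (median -0.28). Pcna, the sliding clamp, had 4839.8, 5017 and 4884 in null samples, against 7517, 6728 and 7543 in floxed samples (-0.56 ± 0.07), and Mcm5, a helicase subunit, 7098, 7177 and 7061 in null and 9935, 9344 and 10363 in floxed samples (-0.47 ± 0.06). Of 28 replication-dependent histone genes, whose transcripts lack poly(A) tails, 0 rose and 11 fell (median -0.29). Hist2h4 had 1617, 1829 and 1836 in null and 3113, 3135 and 3981 in floxed samples (-0.95 ± 0.11), although near-identical copies make single histone values uncertain. Mitosis genes gave 1 higher and 6 lower of 25 (median -0.03), the fallers numbering 2 and the risers 0 without floxed replicate 3. In translation, 0 of 32 cytosolic ribosomal protein genes rose and 17 fell (median -0.23), or 9, 11 and 9 without floxed replicate 1, floxed replicate 3 and null replicate 1, and many have processed pseudogenes that share reads. Of 23 translation factors and tRNA synthetases 0 rose and 14 fell (median -0.28; 9 without floxed replicate 1), and of 17 amino acid response genes 0 rose and 10 fell (median -0.41; 6 without null replicate 1). Aldh18a1, which makes proline precursors, had 1645, 1806 and 1994 in null and 2701, 3122 and 3182 in floxed samples (-0.73 ± 0.10), and Psat1, of serine synthesis, 3178, 3367 and 3574 in null and 4906, 5146 and 5659 in floxed samples (-0.63 ± 0.12). Nuclear genes of oxidative phosphorylation had 0 of 37 higher and 6 lower (median -0.10), near the background share and down to 1 without floxed replicate 1, floxed replicate 3 or null replicate 1 and to 3 without null replicate 3.

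Among pluripotency genes 0 of 20 naive genes rose and 10 fell (median -0.83). Sox2, a core pluripotency and neural factor, had 1949.7, 1955 and 2071 in null samples, against 3366, 3149.8 and 3591 in floxed samples (-0.76 ± 0.07, adjusted p = 7.67e-05). Nr0b1, the corepressor Dax1, had 107, 29.1 and 57.9 in null and 493, 185 and 309.9 in floxed samples (-2.40 ± 0.40), and Tdh, threonine dehydrogenase of pluripotent cells, 860.1, 298 and 545 in null and 2758, 1646 and 2474 in floxed samples (-2.11 ± 0.39). Esrrb, an orphan nuclear receptor, followed (761, 216 and 462 in null and 1354, 985 and 1227 in floxed samples, -1.48 ± 0.32). In Nr0b1, Tdh and Esrrb, replicate 2 was the lowest sample of both genotypes. Zfp42 (0.03), Klf4 (-0.27) and Nanog (-0.57) did not pass, although Nanog did with the replicate block (adjusted p = 0.0247). Of 18 primed epiblast genes 0 rose and 10 fell outside chromosome 11 (median -0.55), a count of 3, 6 and 5 without floxed replicate 1, floxed replicate 3 and null replicate 2. Cdh2, N-cadherin, had 1784, 2042 and 2274 in null and 4619, 3645 and 5765 in floxed samples (-1.18 ± 0.25). The sum of epiblast markers given above was lower in null samples too, and its part here was not tested. Of 15 primitive streak and early mesoderm genes 0 rose and 6 fell outside chromosome 11 (median -1.34), and on it 2 of 3 fell. Nkx1-2, a factor of the caudal epiblast, had 38.4, 52.4 and 33.0 in null and 123, 172 and 141 in floxed samples (-1.80 ± 0.40).

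In endoderm, Foxa2, a factor of node and endoderm, fell (89.3, 79.2 and 86.5 in null and 165, 286 and 236 in floxed samples, -1.38 ± 0.29), and Hhex, a factor of anterior endoderm, rose (151, 119 and 114 in null and 78.8, 47.8 and 74.2 in floxed samples, 0.95 ± 0.20). The list of definitive endoderm and node had 3 of 13 higher and 5 lower (median -0.20), or 3 lower without floxed replicate 1 or null replicate 2. Of 26 extraembryonic endoderm genes 1 rose and Apoe, a lipoprotein gene, fell (-0.60 ± 0.13; median of the list -0.17), the riser being lost without floxed replicate 1 or null replicate 3. Of 12 lateral and cardiac mesoderm genes 1 rose and 1 fell (median -0.03). The riser was Mef2c, a factor of heart and muscle (356, 352 and 339.6 in null and 159.9, 146 and 104 in floxed samples, 1.37 ± 0.31), and the faller was called without null replicate 2 but not without any other library. Of 11 trophoblast genes (median -0.19) and 7 feeder fibroblast markers (median -0.27) outside chromosome 11, 0 passed in either direction, and single libraries or the replicate block changed either count by at most 1.

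Of 26 SAGA and ATAC subunits outside chromosome 11, 1 rose, Kat2b, and 6 fell (median -0.13), beside 11% higher and 14.9% lower over all members there. Taf5l, a scaffold of SAGA, had 1248, 1282 and 1433 in null samples, against 1904, 1851 and 2036 in floxed samples (-0.55 ± 0.08, adjusted p = 0.000618), and Tada2b, the adaptor next to Gcn5 in SAGA, 431, 433 and 408 in null and 581, 522 and 529.9 in floxed samples (-0.36 ± 0.09). Tada1 fell as well (-0.68 ± 0.15). The deubiquitinase gene Usp22 on chromosome 11 was higher in null samples (0.29 ± 0.07), which became -0.04 with the chromosome's median set to 0. In the IGF axis 0 of 13 genes rose and 5 fell outside chromosome 11 (median -0.12), Irs1, a receptor substrate, among them (758, 868 and 643 in null and 1770.3, 1652 and 1659 in floxed samples, -1.17 ± 0.17), and on chromosome 11 the binding protein genes Igfbp3 (1.20 ± 0.22) and Igfbp4 (1.13 ± 0.19) rose.

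Of 22 other acetyltransferases and deacetylases 1 rose and 5 fell outside chromosome 11 (median -0.14), and the fallers numbered between 1 and 2 without floxed replicate 1, floxed replicate 3, null replicate 2 or null replicate 3. Of 18 unfolded protein response genes 1 rose and 5 fell (median -0.16), with 2 fallers without floxed replicate 1 and 3 without floxed replicate 3, null replicate 1 or null replicate 2. Of 24 genes of cholesterol and fatty acid synthesis 0 rose and 6 fell (median -0.30), with 2, 3, 2 and 1 fallers without floxed replicate 1, floxed replicate 3, null replicate 2 and null replicate 3. Among p53 targets, 2 of 18 rose and 1 fell (median -0.05), beside 11% and 14.9% over all members outside chromosome 11. Btg2, an antiproliferative gene, had 2620, 2586 and 2822 in null and 1649, 1817 and 2000 in floxed samples (0.56 ± 0.13), and Trp53inp1 10506, 10118 and 10889 in null and 6939.6, 5475 and 4887 in floxed samples (0.88 ± 0.10). The primary cilium list had 0 higher and 2 lower of 22 (median 0.00), and the cofactor genes of the Meis and Pbx families 0 higher and 3 lower of 8 (median -0.47).

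The day 5 difference was set against that of day 3 by the interaction of genotype and day. Of 16399 members, 81 differed between the days (0.494%) at an adjusted p under 0.05. That count rested on single day 5 libraries, and those of day 3 were not left out. It was 45, 91 and 16 without day 5 floxed replicates 1, 2 and 3. Without day 5 null replicates 1, 2 and 3 it was 9, 3 and 19. The replicate block gave 441 and DESeq2 511. Of the 229 genes chosen for naming, all called at day 5, 199 had a day 3 change of the same sign. The share over all members is not given here, so nothing about the named genes is read from this count. Rian stood at -4.67 ± 0.49 at day 3 (interaction adjusted p = 0.611), H19 at -3.02 ± 0.47 (0.992), Ddx60 at 2.06 ± 0.35 (0.473) and Usp26 at 2.15 ± 0.28 (0.791). Grb10 differed between the days, with -3.05 ± 0.17 at day 3 and an interaction of -3.61 ± 0.25 (adjusted p = 2.92e-05). Its interaction passed without each day 5 library in turn. The interaction did not pass for Kat2a (-1.68 ± 0.11 at day 3, adjusted p = 0.540), nor for Kat2b (0.16 ± 0.14 at day 3, 0.0595), where it did with the replicate block (0.0357), in DESeq2 (0.00196) and without floxed replicate 1 (0.0444).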

How the data were processed

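RNA from embryoid bodies of 12 samples was sequenced from TruSeq stranded total RNA libraries amplified for 8 PCR cycles, per the labels' protocols. The deposited table holds 1 value per gene and sample, a signal that the authors made from read counts divided by a size factor. Per the submitters' processing notes the build was mm10 and the tools included DESeq 1.16.0, HTSeq 0.6.0, CASAVA 1.8.2 and TopHat2 2.0.10, with no role given, and the strand setting of the counting is not given in the sources used here. Whole reads could be recovered from 100% of the values within a tolerance of 0.01.

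Of 18269 genes, 17000 that averaged 10 or more in 1 of 4 groups were fitted with limma 3.58.1 (R 4.3.3; trended variance, log2(value + 1), 12 samples, genotype within day), and p-values were adjusted by Benjamini-Hochberg over all of them. The count test (edgeR 4.0.16, quasi-likelihood, on recovered reads) called 1664 members higher and 2315 lower outside chromosome 11 and 556 and 38 on it. Other alternatives were DESeq2 1.42.0, other scalings, filters and pseudocounts, leaving out single day 5 libraries, and a block for the replicate number. Same-numbered day 5 samples deviated together (correlations of 0.278, 0.247 and 0.424 between genotypes, at most 0.0268 between different numbers). Those of day 3 did too (0.270, 0.304 and 0.372). By the data the numbers thus appear to pair the samples, though the labels give no source of the pairing. The main fit held no block for it, so its SE and adjusted p-values leave the pairing out. The block was run as an alternative only. No 2 samples agreed within sampling noise.

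Genes were placed with GENCODE M21 (18199 of 18269 IDs matched, 70 not), and promoters were read from RefSeq (GRCm38.p6). Members, the 51 gene lists and the naming rule were chosen with earlier results of these data known. The rule took Kat2a, Kat2b and Myc; among called genes without overlap of the groups whose higher group averaged 100 or more, the 12 greatest rises and falls outside chromosome 11 and 6 of each on it; and per list the called members of smallest p, up to 4 outside chromosome 11 and 2 on it. Clone-type symbols (Gm plus digits, ending in Rik, AC, AL or BC plus digits, LOC, RP) were left out of the greatest rises and falls. The rule made 217 genes, of which the leading ones are given. A further 12 were named after their values were seen, as were Calr and the genes given as not passing. Mesp1, Elf5, Lum and genes of the mitochondrial genome were not analysed here, and some genes are not reported here. Python 3.11.15 with pandas 2.3.3, numpy 2.4.6 and scipy 1.17.1 made the summaries.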

Additional observations from a re-analysis of the deposited data

Results flagged for a closer look

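For 15 of the 229 named genes the null against floxed difference at day 5 differed from that at day 3 in a test of the interaction itself (limma, Benjamini-Hochberg adjusted over all genes tested). Over all members it did for 81 of 16399 (0.494%). The named genes were all called at day 5, which favours such a difference, so nothing about them is read from this count. Of the 15, those on chromosome 11 were Grb10, with an interaction of -3.61 ± 0.25 on the log2 scale (adjusted p = 2.92e-05), Etv4 with -2.81 ± 0.52 (0.0368) and Fstl4 with 1.90 ± 0.33 (0.0345). Fstl4 stood at 0.23 ± 0.24 at day 3 and 2.13 ± 0.24 at day 5, and Etv4 at 0.77 ± 0.37 at day 3 and -2.04 ± 0.37 at day 5.

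Outside chromosome 11, the difference grew more negative from day 3 to day 5 for Cyp26b1 (-2.30, adjusted p = 0.0383), Sfrp2 (-1.83, 0.0308), Spry1 (-1.03, 0.0345), Psat1 (-0.919, 0.0353), Scd2, a fatty acid desaturase (-0.889, 0.0451), Aldh18a1 (-0.810, 0.0345), Igf2r (-0.794, 0.0308), Sox2 (-0.627, 0.0345) and Odc1 (-0.599, 0.0345). It grew more positive for Ddx4 (1.38, 0.0308), Btg2 (1.01, 0.0345) and Trp53inp1 (0.796, 0.0368). Ddx4, which rose at day 5, stood at -0.09 ± 0.14 at day 3, and Spry1 at -0.06 ± 0.13.

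When single day 5 libraries were left out, the interaction of Grb10 passed every time and that of Ddx4 was lost only without null replicate 2 (adjusted p = 0.0578). Those of the other 13 genes were lost without at least 2 of the 6 libraries each, null replicates 1 and 2 in every case. Adjusted p-values then lay between 0.0508 and 0.0965. Cyp26b1 also missed the threshold in edgeR (0.0921).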

How the results depend on the processing

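Outside chromosome 11 the counts higher and lower (1658 and 2250) moved by less than 1.5 times under every tool, scaling, filter and pseudocount run. The balance between them depended on the scaling, with 1815 higher and 1931 lower when scaled on genes outside chromosome 11. TMM scaling gave 1741 and 2060. Of the calls there, 42.43% were higher in the main fit and 48.45% when scaled outside chromosome 11. Leaving out 1 day 5 library gave 1183 to 1539 higher and 1497 to 1994 lower. The 1183 was without null replicate 3 and the 1497 without floxed replicate 3. On chromosome 11 the same ranges were 422 to 494 higher (548) and 25 to 36 lower (35). With the chromosome's median set to 0, an alternative chosen after seeing the data, 162 were higher and 164 lower, and 4 named genes changed sign: Usp22 (-0.037), Rpl19 (-0.13), Pold2 (-0.034) and Birc5 (-0.11). The count of members whose difference changed between the days (81) was 511 in DESeq2, 441 with the replicate block and 3 to 91 without 1 day 5 library. The cause was not tested. The replicate block otherwise gave 2062 higher and 2874 lower outside chromosome 11 and 625 and 52 on it, and beyond what stands beside the results it moved list counts of 0 to 2 by at most 2 genes and changed no other call given. Of 229 named day 5 calls, 181 held without each day 5 library and 48 were lost without at least 1. With 3 samples a group of 1 line each, a gene that did not pass is not shown to be alike in both lines.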
